A study of Caenorhabditis elegans with 17 samples.

Results

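The aquaporins of *C. elegans* are membrane channels that let water, and in some members glycerol, pass down their gradients. Here they are the genes that the deposited oocyte table names *aqp-1* to *aqp-8*, *aqp-10* and *aqp-11*, and all 10 were present among the 21459 genes listed. Aquaporin-named rows outside this rule were not used here.

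Oocytes were dissected from wild-type Bristol N2 hermaphrodites that had spent the period from the L4 larval stage to the first day of adulthood either on control NGM agar or on agar with 300 mM NaCl. The labels describe 9 control libraries and 8 libraries from 300 mM NaCl, each set carrying 3 replicate numbers with letters within a number. The oocytes next in line for fertilization came away from the gonad arm joined together, with some gonadal sheath still attached, so every library holds oocyte RNA and some somatic RNA. The only measurement used is the authors' mean normalized count, in which read counts were divided by a size factor per library and averaged over all libraries entered. It is 1 value per gene for both groups together, so it gives the level of an mRNA in these oocyte preparations and carries no spread, no n per group and no contrast of 300 mM NaCl with control. The remaining numeric columns hold the authors' own contrast and were left aside. The depth of each library is unknown.

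An aquaporin assembles as a tetramer in which each subunit has its own pore. Water follows the osmotic gradient through it, so the channels set how fast a cell shrinks or swells when the salt outside changes. Aquaglyceroporins also pass glycerol, the osmolyte that *C. elegans* makes and stores when it is kept on high salt. When worm aquaporins were expressed in frog eggs, *aqp-2*, *aqp-4* and *aqp-6* raised water permeability, *aqp-1* raised glycerol permeability, and *aqp-3* and *aqp-7* raised both. *aqp-5* and *aqp-8* belong to the same canonical family, while *aqp-10* and *aqp-11* lie outside it and are more distant in sequence. These roles are background and were not measured here.

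The oocyte preparations held 1 abundant aquaporin mRNA, 3 at an intermediate level and 6 at a low level. The abundant one was *aqp-3* (WBGene00000171), with a mean normalized count of 1051. It was followed by *aqp-7* (WBGene00000175) at 248, *aqp-10* (WBGene00000178) at 162 and *aqp-11* (WBGene00000179) at 141. Below *aqp-11* the order broke by a factor of 8.58, the largest step between neighbours, to *aqp-6* (WBGene00000174) at 16.4. The low group went on with *aqp-2* (WBGene00000170) at 11.2 and *aqp-1* (WBGene00000169) at 10.2. At the bottom stood *aqp-8* (WBGene00000176) at 4.59, *aqp-4* (WBGene00000172) at 3.43 and *aqp-5* (WBGene00000173) at 0.872. A mean of at least 10, the minimum taken here for calling a gene detected, was reached by 7 of the 10, with *aqp-1* just above it, and by 52.6% of all listed genes. From *aqp-3* to *aqp-5* the mean normalized count spanned 1206-fold.

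**Figure D1:**
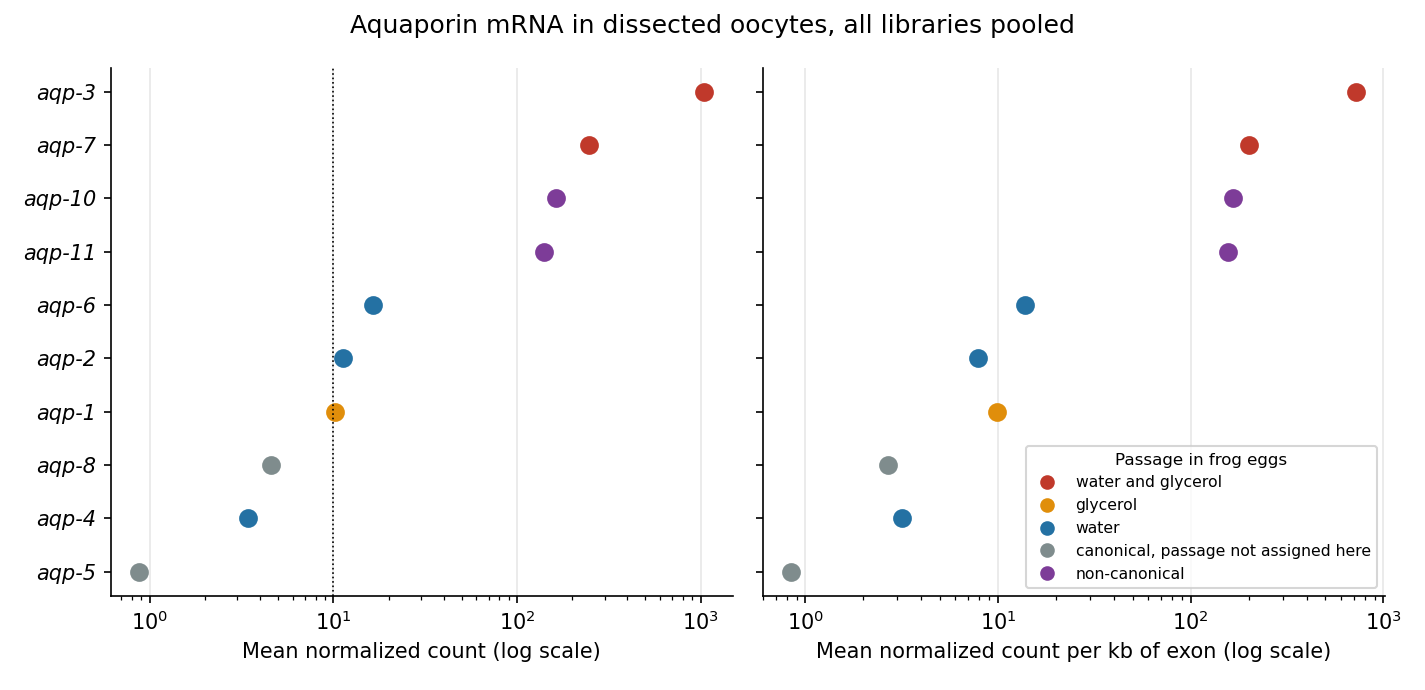
Mean normalized count of each aquaporin gene (left) and the same value per kilobase of annotated exon (right), both on log axes, 1 point per gene for all libraries pooled and no error bars because the table gives none. Colours give what each channel is known to pass in frog eggs, and the dotted line marks a mean of 10. *aqp-3*, *aqp-7*, *aqp-10* and *aqp-11* lie above 100 on both scales and the other 6 below 17.

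Where reads cover a whole mRNA, a longer one yields more fragments. Whether they did so in these libraries was not tested. Levels of different genes were also set per kilobase of exon, with the exons of all annotated isoforms merged. On that scale *aqp-3* stood at 725 per kilobase, *aqp-7* at 200.1, *aqp-10* at 165 and *aqp-11* at 157. The next was *aqp-6* at 13.9 per kilobase, a step of 11.3-fold. Length changed the order only among the low members. Per kilobase *aqp-1* (9.85) lay above *aqp-2* (7.86), and *aqp-4* (3.19) lay above *aqp-8* (2.68), each the reverse of the order of the means. Without a spread between libraries it cannot be said whether neighbours this close differ, and the same holds for *aqp-10* and *aqp-11*, whose per-kilobase levels had a ratio of 1.05.

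Grouped by what the channels pass, the pair that carries both water and glycerol held most of the family's mRNA. *aqp-3* and *aqp-7* together made up 78.8% of the summed mean normalized count of the 10 genes, and 72.0% of the sum per kilobase. The non-canonical pair, *aqp-10* and *aqp-11*, made up 18.4% of the summed mean and 25.03% per kilobase. The 3 members that passed water alone in frog eggs held 1.89% of the summed mean, and *aqp-1*, which passed glycerol alone, held 0.617%. *aqp-5* and *aqp-8* together held 0.331%. *aqp-3* by itself accounted for 63.7% of the summed mean, 1.76 times all the others combined. The fold over *aqp-7*, the nearest member, was 4.24 by the mean and 3.62 per kilobase.

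Among all listed genes, the mean normalized count had a median of 12.3, a lower quartile of 2.39 and an upper quartile of 193. The counts of genes by level formed 2 peaks, one at about 1 to 2 and one at about 9 to 10 on the log2 scale. *aqp-3*, at 10.04 on that scale, lay just past the top of the upper peak: 94.7% of genes had a lower mean, and 1136 genes a higher one. *aqp-7* exceeded 77.3% of genes, *aqp-10* 73.5% and *aqp-11* 72.1%, which places these 3 on the lower flank of the upper peak. *aqp-6* was near the middle, above 53.4% of genes, with *aqp-2* at 49.0% and *aqp-1* at 47.6%. *aqp-8*, *aqp-4* and *aqp-5* exceeded 35.8%, 31.2% and 8.22% of genes. The 10 genes had a median of 13.8, close to the 12.3 of all genes.

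**Figure D2:**
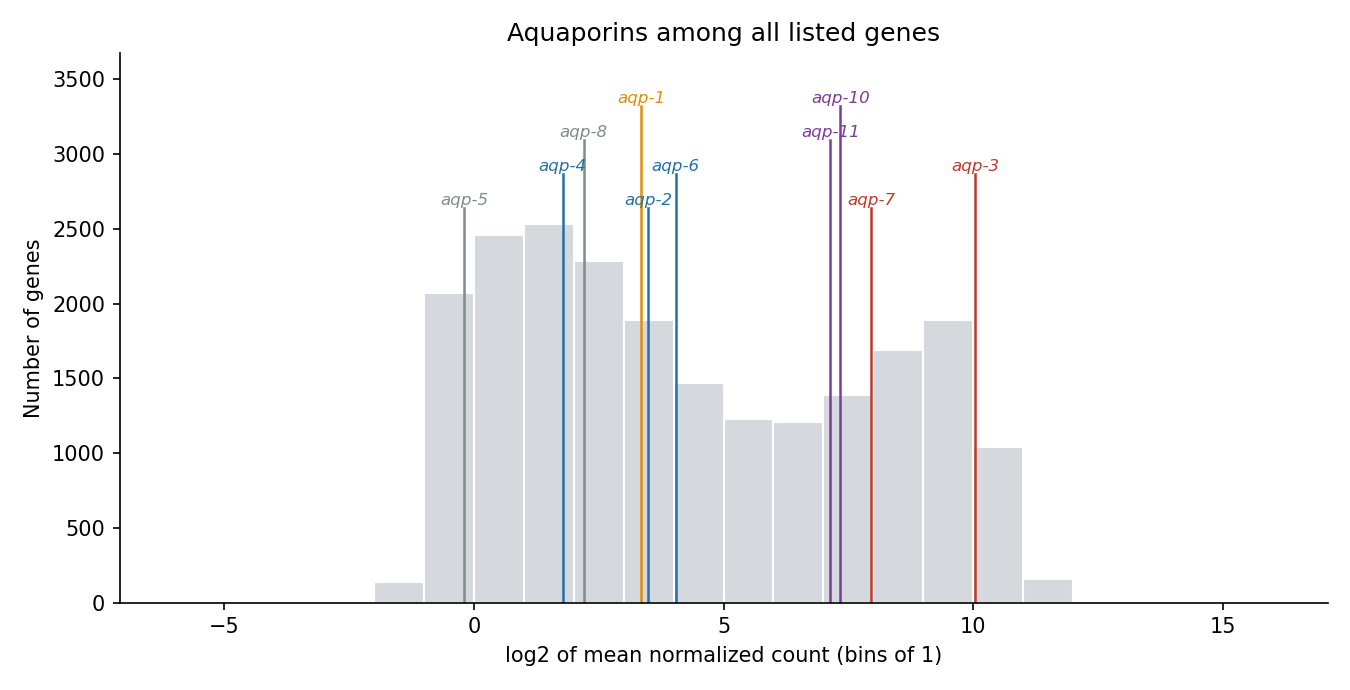
Number of genes in each bin of 1 on the log2 scale of the mean normalized count, over all 21459 listed genes (grey bars), with a line at the value of each aquaporin gene. Colours are as in the plot of levels, and line heights only separate the names. *aqp-3* stands just past the top of the upper peak, and *aqp-7*, *aqp-10* and *aqp-11* on its lower flank. The other 6 are spread over the broad lower peak and its slopes, from -0.198 (*aqp-5*) to 4.04 (*aqp-6*).

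The position of each gene is given in the WBcel235 build, in which the reads were aligned. *aqp-3* lies on the reverse strand of chromosome IV from 10961229 to 10966459 and has the longest gene body of the family, 5231 bp with 1449 bp of merged exon in 7 blocks. Its first intron, of 2587 bp, follows a first exon of 57 bp. *aqp-7* is X-linked, on the forward strand from 3025063 to 3026974, with 6 exon blocks in 1912 bp. *aqp-10* lies on the reverse strand of chromosome II from 9768458 to 9769847, and *aqp-11* on the forward strand of chromosome III from 13673280 to 13674739. These 2 non-canonical genes are the shortest, with bodies of 1390 and 1460 bp, 6 exon blocks each, and no intron longer than 281 bp, which is the third of *aqp-11*.

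Of the low members, *aqp-1* lies on chromosome II from 7235828 to 7238349 and *aqp-2* on the same chromosome from 9259048 to 9261981, both on the reverse strand. *aqp-4* (9737556 to 9739740), *aqp-5* (10491743 to 10493256) and *aqp-6* (10648446 to 10651997) all lie on the forward strand of chromosome V. The second X-linked gene, *aqp-8*, is on the reverse strand from 4702167 to 4704977 and has 1714 bp of merged exon, the most of any member, and 5 annotated transcripts. The table gives genes, not isoforms, so which transcripts were present was not measured.

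**Figure D3:**
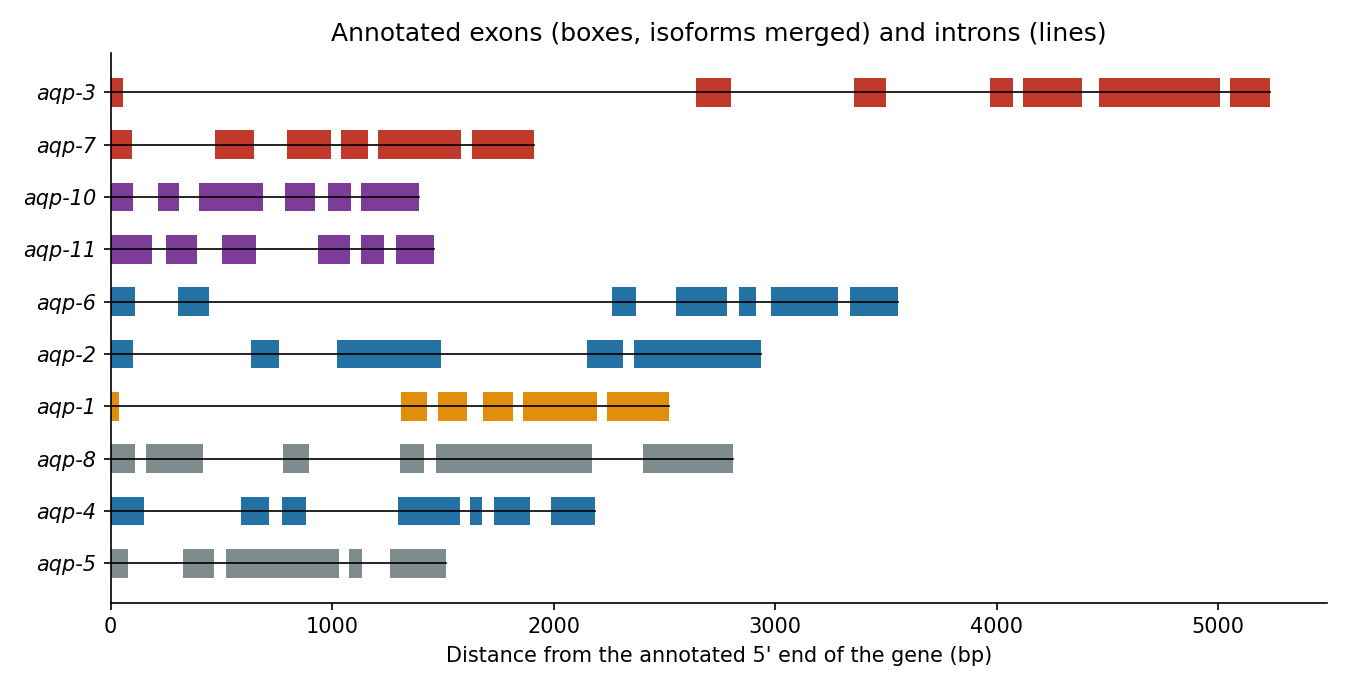
Annotated exons (boxes, isoforms merged) and introns (lines) of the 10 genes, drawn to scale from the 5′ end of each gene in bp and ordered by mean normalized count, with *aqp-3* at the top. Colours are as in the plot of levels. *aqp-3* has the longest body, 5231 bp, with a first intron of 2587 bp, and *aqp-10* the shortest, 1390 bp.

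Some exonic bases are shared with other genes, and whether the authors counted by strand is not given in the sources used here. *aqp-1* shares 93 bp with *ctsa-3.1* on the opposite strand, a gene with a mean of 9.91, close to the 10.2 of *aqp-1* itself. *aqp-4* shares 39 bp with *marc-1* on the same strand (mean 3.34). *aqp-6* shares 3 bp with *ugt-35* on the opposite strand (mean 5.09) and 23 bp with the non-coding *C32C4.10*. *aqp-3* shares 15 bp of its 1449 with the non-coding *Y69E1A.14*, and leaving those bases out of the length moved its level per kilobase from 725 to 733. *aqp-2*, *aqp-5*, *aqp-7*, *aqp-8*, *aqp-10* and *aqp-11* overlap no annotated gene from the start to the end of the gene body, introns included.

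The nearest coding gene on each side shows what lay beside each aquaporin on its chromosome. The nearest coding genes to *aqp-3* are *sri-19*, 20 bp away with a mean of 2.16, and *Y69E1A.8*, 144 bp away with a mean of 1.73. *aqp-7* at 248 lies between *flp-18* (mean 3.70) and *M02F4.1* (mean 9.02), the latter only 205 bp away. *aqp-10* at 162 had neighbours at 68.0 (*shk-1*) and 25.7 (*ZK1321.4*). *aqp-11* at 141 had *flp-15* at 11.5 on one side and *dyf-2* at 264 on the other, 139 bp away. *aqp-8*, with a mean of 4.59, lay below both *hyl-2* (411) and *dhhc-10* (114). In all, 8 of the 20 neighbours were higher than their aquaporin, while on average over the 10 members 45.7% of all listed genes were. Next to the 4 highest members 1 of 8 neighbours was higher, against an average of 20.6% of all listed genes. Those shares take in non-coding genes, while the neighbours are coding genes only. Among protein-coding genes 93.7% had a lower mean than *aqp-3*, 73.0% than *aqp-7*, 68.6% than *aqp-10* and 66.9% than *aqp-11*. Each is less than over all listed genes, so the shares are not matched to the neighbours. The neighbour counts are also few, and nothing particular to the neighbours is read from them.

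**Figure D4:**
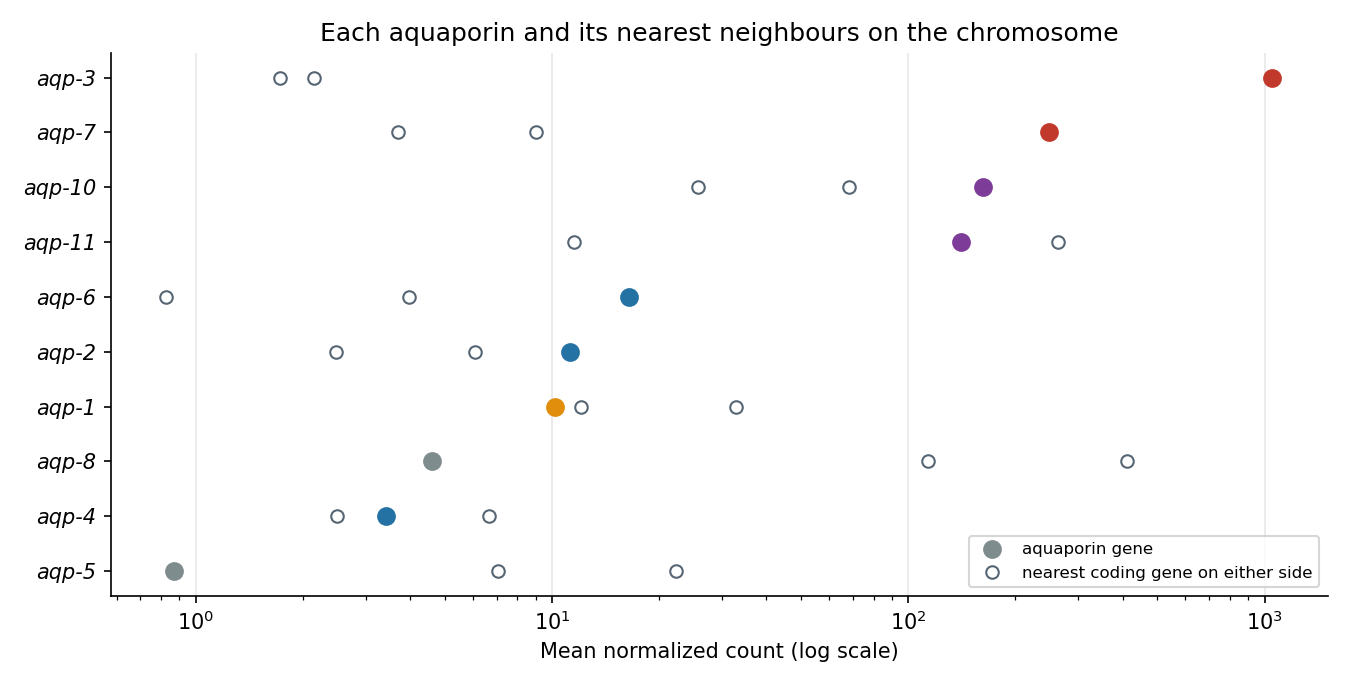
Mean normalized count, on a log axis, of each aquaporin gene (filled, coloured as in the plot of levels) and of the nearest protein-coding gene on each side of it that does not overlap it (open). Both neighbours of *aqp-3* lie below 3 while *aqp-3* is at 1051, and both neighbours of *aqp-8* lie above it.

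X-linked genes had a median of 8.65, against 13.02 for autosomal genes pooled. The X chromosome was not the lowest, as the autosomes ran from 4.55 on chromosome V to 56.9 on chromosome III. Of the autosomes only chromosome V lay below the X. Whether silencing of the X chromosome in germ cells had a part in its median was not tested. Ranked within its own chromosome, *aqp-7* exceeded 86.0% of X-linked genes, more than its place among all genes, while *aqp-8* exceeded 41.02% of them. *aqp-11* fell to 59.0% within chromosome III, where the median was 56.9. On chromosome V, with a median of 4.55, *aqp-6* exceeded 67.3% of genes, *aqp-4* 44.9% and *aqp-5* 12.9%. *aqp-3* kept nearly the same place on chromosome IV, above 94.8% of its genes.

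The channels act beside the enzymes, pumps and transporters that set the salt and osmolyte content of a cell. A list of 25 genes gives the scale, and besides these kinds it holds chloride channels, regulators and a protein linked to desiccation tolerance. All 25 were in the table and 23 had a mean of at least 10. By mean normalized count the list ran from 6.22 for *osm-8*, a regulator of the osmotic response, to 2277 for *eat-6*, the catalytic subunit of the sodium-potassium pump, with a median of 306. Only *eat-6*, the kinase gene *wnk-1* (1945), *lea-1* (1889), which encodes a protein linked to desiccation tolerance, and the cotransporter gene *nkcc-1* (1182) were above *aqp-3*. Per kilobase of exon none of the 25 was above the 725 of *aqp-3*, with *eat-6* at 705 and *vha-8*, a subunit of the vacuolar proton pump, at 670.1. Per kilobase of coding sequence 1 of the 25 was, since *vha-8* then stood at 1121 and *aqp-3* at 832. *gpdh-2*, which encodes a glycerol 3-phosphate dehydrogenase of glycerol synthesis, stood at 532 per kilobase of exon, and its relative *gpdh-1* at 13.5. *clh-3*, a chloride channel that opens when oocytes mature or swell, stood at 133 per kilobase of exon, below *aqp-7*, *aqp-10* and *aqp-11*, but by the mean normalized count it was above them, at 528. Of the 25 genes, 15 were above *aqp-7* by the mean normalized count, 10 per kilobase of exon and 11 per kilobase of coding sequence. For *aqp-10* these numbers were 16, 10 and 12, and for *aqp-11* they were 17, 10 and 13.

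**Figure D5:**
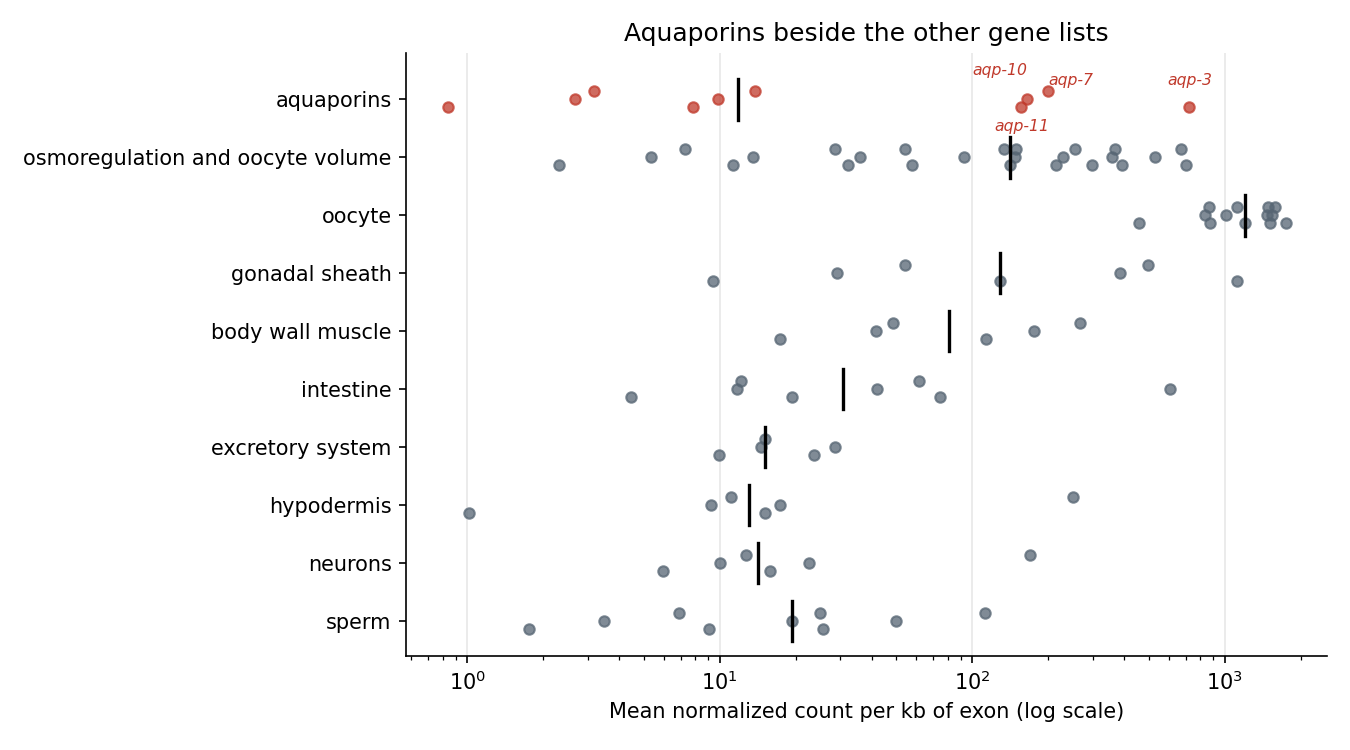
Mean normalized count per kilobase of exon, on a log axis, for the aquaporins (red) and for the other gene lists (grey), with 1 point per gene and a black bar at the median of each list. Small vertical offsets only separate points. *aqp-3* at 725 lies above all 25 osmoregulation and oocyte volume genes and below 12 of the 13 oocyte markers.

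Markers were used to look at which cells the RNA came from. All 13 oocyte markers were abundant, from 1494 for *puf-11* to 6262 for *cbd-1*, and all 13 had a higher mean than *aqp-3*. Per kilobase 12 of the 13 did, the exception being *lin-41* at 457. The 7 gonadal sheath markers ranged from 46.2 (*tnt-3*) to 1515 (*inx-8*), and the sheath transcription factor *lim-7*, at 248, had the same rounded mean as *aqp-7*. The 6 body wall muscle markers ranged from 49.9 to 919, several of which sheath also makes. Of 9 intestine markers 8 were listed, from 8.54 (*ifb-2*) to 725 (*cpl-1*, which is not limited to the intestine), and the yolk genes *vit-2*, *vit-5* and *vit-6* stood at 367, 301 and 213. The 5 excretory system markers ranged from 12.4 to 51.2, the 6 neuron markers from 16.2 to 157, the 6 hypodermis markers from 1.17 to 636, and the 9 sperm markers from 2.24 to 68.1. *aqp-3* was above every listed marker of intestine, excretory system, hypodermis, body wall muscle, neurons and sperm, both by the mean and per kilobase, and 1 of the 7 sheath markers, *inx-8*, was above it. *aqp-7*, *aqp-10* and *aqp-11* had no such margin over the sheath, muscle and intestine markers, as their means lay within those ranges. Of the 8 intestine markers 3, 4 and 4 were above them by the mean, but per kilobase only *cpl-1* (609) was above each. Of the 6 muscle markers 4, 5 and 5 were above them by the mean, and 1, 2 and 2 per kilobase. Of the 7 sheath markers 3, 5 and 5 were above them by the mean, and 3 were above each per kilobase. Of the hypodermis markers only *nhr-23* (636) was above *aqp-7*, *aqp-10* and *aqp-11*, and the next, *bli-1*, stood at 45.4. Of the neuron markers only *unc-119* (157) was above *aqp-11* by the mean, and the next, *unc-13*, stood at 87.1. Per kilobase *unc-119*, at 170, was above both *aqp-10* and *aqp-11*. In reporter studies *aqp-1* and *aqp-4* are known from the intestine and *aqp-8* from the excretory cell, and all 3 means were at or below 10.2, under most markers of those tissues. Reported sites of the other members, *aqp-3* among them, were not set beside markers here. No link between known site and level is therefore read from these 3. How much of each aquaporin's mRNA came from oocytes, sheath or other attached cells was not tested, and in a bulk library fewer cells of a type and less RNA per cell cannot be told apart.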

How the data were processed

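RNA from dissected oocytes was sequenced in 17 libraries, grouped from the labels. Alignment to WBcel235 and counting with STARsolo were done by the authors, who then dropped every gene whose reads summed to under 10 over the samples and used DESeq2. Tool versions and the libraries entered are not given in the sources used here, and the submitters' processing notes name STAR and kallisto. The deposited mean normalized count is a signal averaged by the authors over all libraries entered. The other 5 numeric columns (log2 fold change, its standard error, a test score and the p-value before and after adjustment) hold the authors' own comparison of the groups and were not used. No column holds a single library, so no test was made, library depth is unknown, and errors cannot be given.

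From the deposited means, levels per kilobase, percentiles (share of listed genes with a lower value), family shares and neighbours were computed in Python 3.11.15 with pandas 2.3.3, numpy 2.4.6 and matplotlib 3.10.9. Interval code was checked on simulated intervals, and percentile code on values placed between the deposited means. Positions and exon lengths came from Ensembl release 115 for WBcel235, where 21399 of the 21459 gene IDs were found. The genes named were the 10 members, the osmoregulation genes of highest and lowest level, and markers. *wnk-1*, *lea-1*, *nkcc-1*, *vha-8*, *gpdh-1*, *gpdh-2* and *clh-3*, neighbouring genes and the grouping by passage of water and glycerol were chosen after values were seen. The members and all lists were chosen with earlier results of these data known.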

Additional observations from a re-analysis of the deposited data

How the results depend on the processing

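Of the 10 aquaporin genes, 6 kept their place in the order per kilobase of merged exon and 6 per kilobase of exon free of other genes, because *aqp-1* and *aqp-2* and *aqp-4* and *aqp-8* changed places, and all 10 kept it per kilobase of coding sequence. The number detected, 7 with a minimum of 10, was 9 with a minimum of 1 and 4 with a minimum of 100. Most listed genes also reached 1, as their lower quartile was 2.39, and most fell short of 100, as their median was 12.3. Nothing particular to the family is therefore read from these counts. The number above the median gene, 5, was 4 among protein-coding genes and 4 per kilobase, and 2 (*aqp-3* and *aqp-7*) when the background was limited to means of at least 10, a set with a higher median. The share of *aqp-3*, 63.7%, was 56.4% per kilobase because its exons are longer than those of *aqp-7*, *aqp-10* and *aqp-11*. Alternative alignments of the proteins were not run, since protein sequences were not used here. No paired analysis was possible because the means pool all libraries and carry no replicate number. What depth limits could not be assessed. A high mean can rest on a few libraries, and this was not tested.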

Other observations

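In a wider window, chosen after seeing the data, of 50 kb on each side, *aqp-3* was exceeded by 3 of 30 listed genes, *aqp-10* by 3 of 20 and *aqp-7* by 0 of 12. *aqp-11* was exceeded by 8 of 15 genes, whose median was 209.8, and *aqp-5* by 25 of 28, whose median was 11.3. For the remaining members the numbers were 12 of 27 for *aqp-1*, 11 of 23 for *aqp-2* and 24 of 33 for *aqp-4*. They were 10 of 28 for *aqp-6* and 11 of 19 for *aqp-8*. Over all listed genes, 94.7% had a lower mean than *aqp-3*, 73.5% than *aqp-10*, 77.3% than *aqp-7*, 72.1% than *aqp-11* and 8.22% than *aqp-5*. The shares were 47.6% for *aqp-1*, 49.0% for *aqp-2*, 31.2% for *aqp-4*, 53.4% for *aqp-6* and 35.8% for *aqp-8*.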
